A study of Danio rerio with 6 samples.

Results

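The genes described here are the Eph receptors and the ephrins of zebrafish, the family's ligands. A list of 30 symbols (17 receptors and 13 ephrins) was matched to the annotation of the counted genes. Its members were chosen by gene name and not by their measured values, although earlier results of these data were known. An identifier was found for 28 of them, 15 receptors and 13 ephrins, among 32520 genes counted. The symbols epha5 and epha8 matched no identifier and were not analysed here. RNA was sequenced from Kaede-positive, DAPI-negative cells sorted from the dissected posterior hindbrain of Tg(isl1:Kaede) embryos, in which regulatory sequence of isl1 drives a fluorescent protein in motor neurons of the head, vagus motor neurons included. Every embryo was kept in 0.2 mM PTU. The RA group (3 libraries, replicates 6, 9 and 12) received 50 nM retinoic acid in DMSO from 24 hours after fertilization, the control group (3 libraries, replicates 1, 4 and 10) DMSO alone, and both were collected at 38 hours. The labels do not say whether the libraries of a group came from separate clutches, so the p-values measure the spread between these libraries, which may in part be technical.

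Eph receptors are receptor tyrosine kinases that bind ephrins on the surface of neighbouring cells. Class A receptors mostly bind the class A ephrins, which are tethered to the membrane by a lipid anchor, and class B receptors mostly bind the class B ephrins, which span the membrane. The EphA4 receptors bind ligands of both classes. Contact signals into both cells, forward through the receptor and in reverse through the ephrin, and often ends in repulsion. In the hindbrain the family is known for keeping the cells of adjacent segments apart, and in the nervous system at large for steering axons, those of motor neurons included. Retinoic acid is a derivative of vitamin A that gives hindbrain cells their position along the head-to-tail axis.

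The libraries held 15971653 to 23411427 counted fragments. Of the 28 genes, 27 had enough counts to be tested, and 23 averaged at least 10 CPM, the count scaled to the size of the library, in DMSO. The labelled cell type was checked by its markers. The motor neuron factor isl1a lay at 985 to 2385 CPM and phox2bb, a factor of branchial and visceral motor neurons, at 1901 to 3092 CPM in single libraries. Summed over 11 matched genes, branchiomotor markers lay at 6765 to 9063 CPM under DMSO and at 4989 to 6182 CPM under RA, without overlap. Under DMSO, isl1a, phox2a and phox2bb had the highest levels in this sum. Under RA tbx2b averaged 744 CPM, above phox2a at 627 CPM. Of the 11, 2 were higher and 9 lower. The transmitter genes slc18a3a, slc5a7a and chata averaged 411, 73.1 and 54.0 CPM under DMSO against 431, 79.0 and 51.7 CPM under RA. Of the 11, 1 passed an adjusted p-value of 0.05. It was the motor neuron factor tbx20, which fell from 212 ± 27.5 to 67.6 ± 3.15 CPM (adjusted p-value of 0.00483 by edgeR). Genes of hindbrain segments and of head-to-tail position (10 matched genes, 9 tested) summed to 934 to 1268 CPM under DMSO and to 2229 to 3948 CPM under RA. Of these, hoxb4a, hoxb5a and hnf1ba rose and otx2b fell (edgeR, adjusted p-values of 0.0368, 0.00816, 0.0362 and 0.0376). Genes of other cells were present too. Summed over 13 matched genes, markers of neural progenitors and glia lay at 3584 to 3919 CPM under DMSO against 2935, 4614 and 3217 CPM in RA replicates 6, 9 and 12. Of these 13, 8 were higher and 5 lower under RA (median log2 fold change 0.04). Only gfap, a gene of radial glia, passed 0.05, and rose from 69.6 ± 9.45 to 139 ± 20.9 CPM (adjusted p-value of 0.0352 by edgeR). In the same list fabp7a was lower on average, at 864.5 ± 156.5 CPM under DMSO against 592.5 ± 169.7 CPM under RA (adjusted p-value of 0.422 by edgeR). The 6 spinal motor neuron markers summed to 214 to 270 CPM under DMSO against 176 to 229.5 CPM under RA. Most of the DMSO sum was lhx4, at 212.5 ± 24.4 CPM under DMSO against 103.8 ± 30.6 CPM under RA (adjusted p-value of 0.0903 by edgeR). Of the 6, 4 were higher and 2 lower. The progenitor factor olig2 rose from 16.6 ± 6.67 to 77.5 ± 21.8 CPM (adjusted p-value of 0.0285 by edgeR). Markers of epidermis (8 matched genes) lay at 792 to 955 CPM under DMSO against 827, 1284 and 440 CPM under RA, and those of neural crest and pigment cells (9 genes) reached 330 CPM in RA replicate 9 against 94.4 to 149.9 CPM elsewhere. None of the matched genes of these lists was at 0 in all libraries. RA replicate 9 was also the highest of the RA libraries for 22 of the 27 tested Eph and ephrin genes, which is the case for 38.7% of all tested genes. Muscle genes reached 1105 CPM in RA replicate 6 and 514 CPM in DMSO replicate 4, and lay at 27.6 to 192 CPM elsewhere. Erythrocyte genes (6 matched, none tested) summed to 65.9 CPM in DMSO replicate 10 and to 0.0446 to 0.732 CPM elsewhere. Lower values were not particular to branchiomotor markers (81.8% lower, median log2 fold change -0.20). Cranial sensory neuron markers were higher in 2 and lower in 11 (84.6%, median -0.295). Markers of other hindbrain neurons were higher in 3 and lower in 16 (84.2%, median -0.526), beside 47.4% lower of all tested genes. The sums of these neuron lists overlapped between the groups, and none of their genes passed 0.05 with edgeR. The part of cell makeup, of the lower branchiomotor sum and of RA replicate 9 in the results below was not tested. In bulk samples, fewer cells of a type and less RNA per cell cannot be told apart.

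Levels between genes were compared as CPM per kilobase of annotated exon. By this measure the ephrins were the more abundant side in DMSO. Together the 13 ephrins summed to 344 ± 19.8 CPM per kilobase (SD, n = 3) and the 15 receptors to 157 ± 20.5, and in RA to 326 ± 27.4 and 151 ± 34.5. The ephrins made up 65.4% to 72.0% of the summed level of the 28 genes in single libraries, and the groups overlapped in this share. This share depends in part on the annotated exon lengths. The levels here leave out ephb6, efna4 and ek1, which are given at the end. The highest gene in DMSO was efna3b, a class A ephrin, with 73.0 ± 10.6 CPM per kilobase. The class B ephrin efnb3b followed with 67.8 ± 10.8, then the class A ephrins efna1b with 51.9 ± 13.5, efna2b with 51.4 ± 5.76 and efna2a with 41.8 ± 3.46. The highest receptor was ephb3a, a class B receptor, with 40.6 ± 6.74 CPM per kilobase. Next among receptors were epha4b with 24.9 ± 2.91, ephb3b with 18.3 ± 14.8 and ephb4a with 16.8 ± 2.12. Of the 27 steps from 1 gene to the next in this order, the DMSO libraries of the neighbours were separate in 7, so most neighbours cannot be ranked. At the lower end lay epha7 with 2.43 ± 0.657, efna3a with 0.671 ± 0.313, epha6 with 0.355 ± 0.0259 and ephb2a with 0.0970 ± 0.0783 CPM per kilobase. The gene ephb2a, a class B receptor, had 29, 23 and 2 counts in DMSO replicates 1, 4 and 10 and 4, 4 and 3 under RA. DMSO replicate 10 and the RA libraries were near the floor of 3 counts, and ephb2a was not tested.

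**Figure D1:**
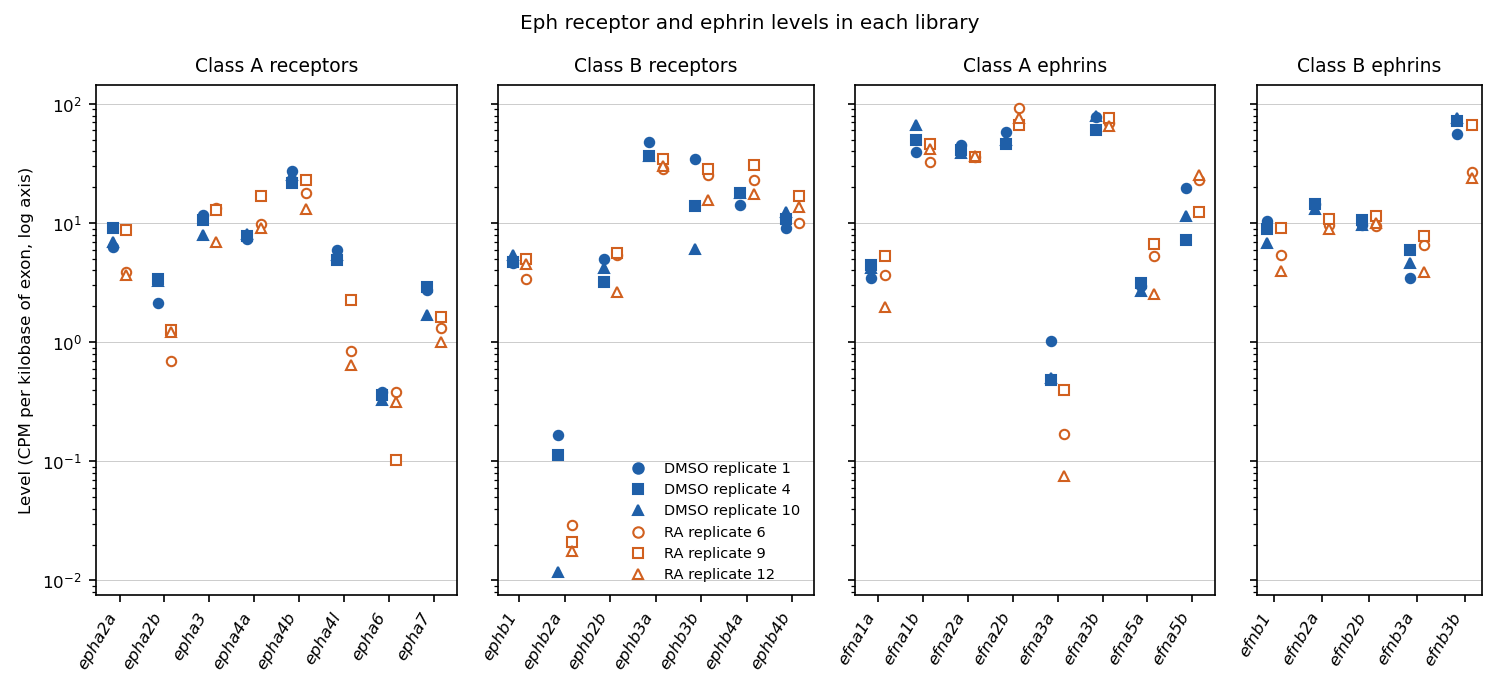
Level of each of the 28 genes in each library, in CPM per kilobase of exon on a log axis, by class and role, with filled blue symbols for DMSO and open orange symbols for RA. The highest genes are ephrins, from 73.0 CPM per kilobase for efna3b in DMSO, and epha6, ephb2a and efna3a lie under 1 on average.

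No Eph receptor or ephrin passed an adjusted p-value of 0.05 between RA and DMSO (0 of 27, quasi-likelihood test of edgeR, Benjamini-Hochberg over 17270 genes, of which 0.799% passed, 0.446% higher and 0.353% lower). At an unadjusted edgeR p-value under 0.05 there were 9 of the 27, 3 higher and 6 lower in RA, against 10.2% of all tested genes. Among these 9 were 6 receptors and 3 ephrins. DESeq2 passed 4 of the 27 (3.89% of its genes) and limma-voom with quality weights another count of 4 (2.28%). The genes that DESeq2 passed were epha4l, epha2b and efnb2a, lower in RA, and efna2b, higher. Limma-voom passed epha4l, epha2b and efna2b too, and efnb3b in place of efnb2a. With edgeR, epha4l also passed with no filter on low counts (1 member, 1.02% of all genes), and epha4l and efnb3b passed without RA replicate 9 (2 members, 1.83% of all genes). In 9 of the 27 genes (33.3%) every RA library lay on one side of every DMSO library, 2 higher and 7 lower, against 15.5% of all tested genes, 7.78% higher and 7.70% lower. These are counts of single genes and no test of the family was made.

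**Figure D2:**
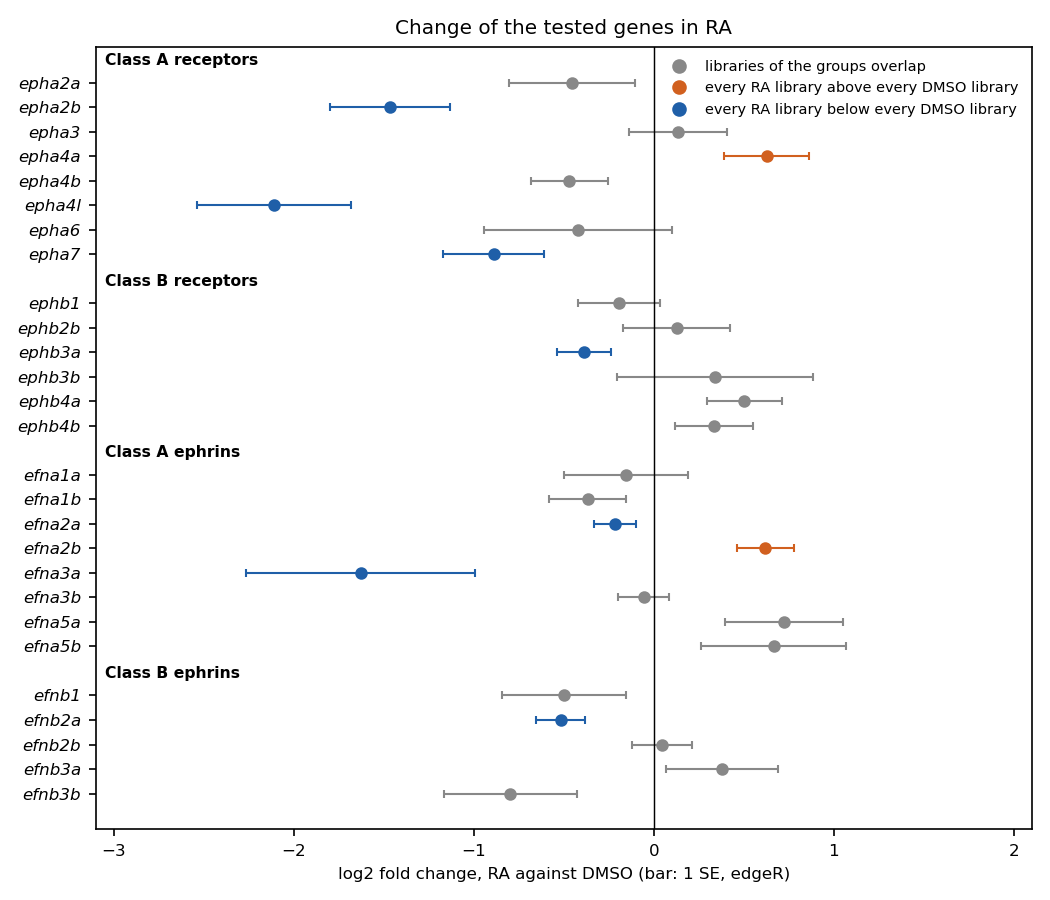
Log2 fold change of the 27 tested genes in RA against DMSO, with bars of 1 standard error from the edgeR fit, by role and class. Blue and orange points are the 9 genes whose libraries do not overlap between the groups, from -2.11 for epha4l to 0.63 for epha4a. No gene passed an adjusted p-value of 0.05.

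Of the listed receptors, the largest fold change was that of epha4l, which is 1 of 3 class A genes of the EphA4 type. EphA4 is a receptor known in mouse for the choice that motor axons make at the base of the limb. The gene epha4l (ENSDARG00000010767, GRCz11 chromosome 15, 41945310 to 42039192) lay at 50.2, 41.5 and 46.0 CPM in DMSO replicates 1, 4 and 10 and at 7.22, 19.1 and 5.52 CPM in RA replicates 6, 9 and 12. All RA libraries were under all DMSO libraries, and RA replicate 9 stood nearest to them. The log2 fold change was -2.11 (SE 0.43, adjusted p-value of 0.0830 by edgeR), or a level 0.232-fold that of DMSO, and without RA replicate 9 it was -2.86 (adjusted p-value of 0.00197 by edgeR). It was lower under all 13 alternatives (-2.86 to -1.80), with adjusted p-values from 1.43e-05 (DESeq2) to 0.299 (edgeR without DMSO replicate 1). An antisense gene shares 197 bases of its exons, 2.32% of their length, and the counting ignored strand.

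The gene epha4a (ENSDARG00000054454, chromosome 2, 40067808 to 40136024) marks segments 3 and 5 of the zebrafish hindbrain. It lay at 36.3, 38.6 and 39.7 CPM under DMSO against 49.1, 83.1 and 44.9 CPM under RA. The RA libraries were all higher, and replicate 9 stood far above replicates 6 and 12. Its log2 fold change was 0.63 (SE 0.24, adjusted p-value of 0.397 by edgeR), and 0.29 without RA replicate 9. The transcription factor egr2b, which drives epha4a in those segments, lay at 2.29, 0.338 and 0.652 CPM under DMSO. Under RA it was lower in every library, at 0.249, 0 and 0.0506 CPM. These levels are low, and egr2b was not tested. The third gene, epha4b (ENSDARG00000011600, chromosome 2, 40294313 to 40514151), lay at 91.4, 72.3 and 83.9 CPM under DMSO against 59.2, 76.4 and 43.2 CPM under RA. RA replicate 9 reached into the DMSO range, and the other RA libraries were under it. The log2 fold change was -0.47 (SE 0.21, adjusted p-value of 0.511 by edgeR).

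The 3 genes therefore made up different shares of their summed level per kilobase. The share of epha4l was 14.5%, 14.1% and 13.95% under DMSO and 2.96%, 5.32% and 2.85% under RA. That of epha4a was 17.95%, 22.6% and 20.7% in DMSO and 34.6%, 39.9% and 39.8% in RA. Neither share overlapped between the groups, RA replicate 9 included, and epha4b held the largest share in every library, at 54.8% to 67.6%. The summed level of the 3 genes was 38.1 ± 3.23 CPM per kilobase in DMSO and 31.2 ± 9.91 in RA, with the RA libraries on both sides of the DMSO range.

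**Figure D3:**
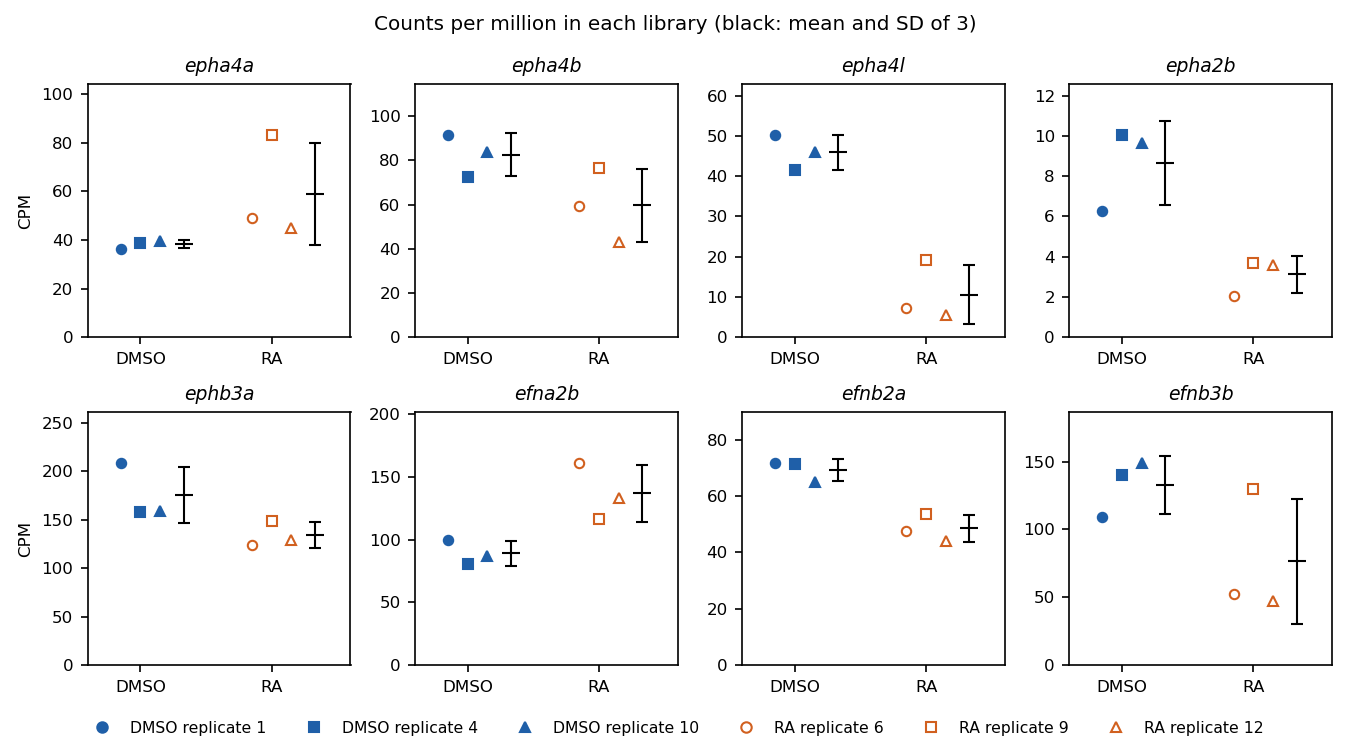
CPM in each library for 8 genes on axes from 0, with the mean and SD of 3 libraries in black. RA replicate 9 (open square) is the highest RA library in 7 of the 8 genes, all but efna2b, and in epha4b and efnb3b it lies within the DMSO range while the other 6 genes show no overlap.

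Outside the EphA4 type, epha2b and epha7 were the class A receptors whose groups did not overlap, both lower in RA. EphA2 is a receptor of epithelia in mammals. The gene epha2b (ENSDARG00000022727, chromosome 23, 24351304 to 24394719) lay at 6.25, 10.0 and 9.63 CPM under DMSO against 2.05, 3.71 and 3.59 CPM under RA. Its highest RA library was under its lowest DMSO library. The log2 fold change was -1.46 (SE 0.33, adjusted p-value of 0.120 by edgeR), with DESeq2 at an adjusted p-value of 0.00371 and limma-voom with quality weights at 0.0299. It ranged from -1.81 to -1.24 over 12 alternatives. For epha7 the values were 19.4, 20.7 and 12.0 CPM under DMSO against 9.34, 11.6 and 7.24 CPM under RA, with a gap of under 1 CPM between the groups and a log2 fold change of -0.89 (SE 0.28, adjusted p-value of 0.273 by edgeR). The remaining 3 overlapped between the groups. They were epha2a at -0.45 (SE 0.35), epha3, a receptor of retinal axons in chick, at 0.13 (SE 0.27), and epha6 at -0.42 (SE 0.52). In epha2a, RA replicates 6 and 12 were low (14.4 and 13.7 CPM) and replicate 9 (32.7 CPM) was not, beside 23.6 to 34.0 CPM in DMSO.

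The listed class B receptors differed less. The receptor ephb6, which the list does not name, is given at the end. EphB receptors are known in mouse for guiding axons at the midline and for separating cells of the gut lining. The most abundant of all receptors, ephb3a (ENSDARG00000031548, chromosome 2, 7923964 to 8017579), lay at 209, 158 and 159 CPM under DMSO against 124, 149 and 129 CPM under RA. The RA libraries were all lower, with a gap between 149 and 158 CPM, and the log2 fold change was -0.39 (SE 0.15, adjusted p-value of 0.416 by edgeR). Its copy ephb3b spread over 52.2, 21.1 and 9.13 CPM in DMSO, wider than any difference between the groups, and lay at 38.4, 42.6 and 23.3 CPM under RA. Its log2 fold change was 0.34 (SE 0.54), and 1.19 without DMSO replicate 1. The annotated ephb3b model holds 1506 bases of exon, of which 53 are shared with an antisense gene.

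The receptor ephb4a, which marks veins in zebrafish, lay at 63.2, 79.5 and 79.4 CPM under DMSO against 101, 135 and 78.0 CPM under RA. The groups overlapped by RA replicate 12, and the log2 fold change was 0.50 (SE 0.21, adjusted p-value of 0.463 by edgeR). Its copy ephb4b was at 0.33 (SE 0.22), ephb2b at 0.13 (SE 0.30) and ephb1, a receptor of retinal axons in mouse, at -0.19 (SE 0.23), all with overlapping groups.

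Among the class A ephrins the clearest difference was that of efna2b, and it was upward. Ephrins A2 and A5 are known as graded repellents that map retinal axons onto the midbrain. The gene efna2b (ENSDARG00000079740, chromosome 11, 14622379 to 14640317) lay at 100, 80.4 and 86.8 CPM under DMSO against 161, 116 and 133 CPM under RA. Every RA library was above every DMSO library, and RA replicate 9 was here the lowest of the RA libraries. The log2 fold change was 0.62 (SE 0.16), a 1.54-fold level, with adjusted p-values of 0.157 (edgeR), 0.0237 (DESeq2) and 0.0250 (limma-voom with quality weights). It was 0.49 to 0.79 over the 13 alternatives. In RA it was the most abundant gene of the family per kilobase, at 78.9 ± 13.1 against 70.2 ± 5.33 for efna3b, although their RA libraries overlapped. Another annotated gene on the same strand shares 478 bases with its exons, 27.6% of their length, and fragments in the shared bases may have gone uncounted, so its level is a low estimate.

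The gene efna2a went slightly the other way, with 121, 109 and 103 CPM under DMSO against 94.5, 94.95 and 96.9 CPM under RA. The groups did not overlap, and the log2 fold change of -0.22 (SE 0.12, adjusted p-value of 0.622 by edgeR) was less than 2 standard errors. The lowest class A ephrin, efna3a, had 100, 54 and 47 counts in DMSO and 13, 42 and 7 in RA, without overlap in CPM (-1.63, SE 0.64, adjusted p-value of 0.421 by edgeR). Its log2 fold change was -2.46 without RA replicate 9 and -1.18 without DMSO replicate 1. The highest, efna3b, lay at 178, 138 and 181 CPM under DMSO against 158, 172 and 148 CPM under RA, within the DMSO range (-0.06, SE 0.14). The gene efna1b, whose mammalian counterpart is made by endothelial cells, had 75.6, 95.4 and 127 CPM under DMSO against 62.8, 88.1 and 79.6 CPM under RA (-0.37, SE 0.21). Both A5 ephrins were higher on average in RA with overlapping groups, efna5a at 0.72 (SE 0.33) and efna5b at 0.67 (SE 0.40), and efna1a was at -0.15 (SE 0.35).

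Of the class B ephrins, efnb2a and efnb3b were lower in RA, in different ways. In zebrafish efnb2a marks hindbrain segments that adjoin those of the EphA4 receptor, and the arteries. The gene efnb2a (ENSDARG00000020164, chromosome 9, 26103814 to 26127305) lay at 71.9, 71.5 and 65.0 CPM under DMSO against 47.7, 53.8 and 44.2 CPM under RA. Both groups were tight and apart, and RA replicate 9 stood close to the other RA libraries. The log2 fold change was -0.52 (SE 0.13), a 0.699-fold level, with adjusted p-values of 0.172 (edgeR), 0.0229 (DESeq2) and 0.0552 (limma-voom with quality weights), and -0.60 to -0.46 over the 13 alternatives.

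The gene efnb3b (ENSDARG00000042277, chromosome 7, 20965880 to 21089475), whose mouse counterpart keeps axons from crossing the midline of the spinal cord, lay at 109, 140 and 149 CPM under DMSO against 52.4, 129.9 and 47.0 CPM under RA. RA replicates 6 and 12 were below all DMSO libraries and replicate 9 was inside their range. The log2 fold change was -0.80 (SE 0.37, adjusted p-value of 0.522 by edgeR), and without RA replicate 9 it was -1.42 (adjusted p-value of 0.0133 by edgeR). Its share of the summed ephrin level per kilobase was 16.3%, 22.0% and 20.9% in DMSO and 8.34%, 18.7% and 7.98% in RA. The other class B ephrins overlapped between the groups, with efnb1, mutated in a human craniofacial syndrome, at -0.50 (SE 0.35), efnb2b at 0.04 (SE 0.17) and efnb3a at 0.38 (SE 0.31).

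The markers of endothelium were examined because ephb4a and efnb2a are vascular genes elsewhere in the embryo. Summed over 13 matched genes, they lay at 124 to 130 CPM under DMSO against 202, 119.9 and 139 CPM under RA, and none of the 13 was at 0 in all libraries. The junction gene cdh5 had 1.51, 0 and 0 CPM under DMSO against 4.55, 0 and 1.97 CPM under RA. Of 11 tested endothelial genes, 8 were higher and 3 lower (median log2 fold change 1.87), and 2 passed 0.05 with edgeR, against 0.799% of all tested genes. That median is the value of dll4. Several of the higher genes had low levels and wide errors, with SE of 1.72 for cdh5, 1.26 for flt1, 1.27 for tie1 and 1.36 for sox18. These were highest in RA replicate 6. The receptor gene kdrl fell from 82.2 ± 7.26 to 12.4 ± 6.07 CPM (adjusted p-value of 0.0197 by edgeR) and the Notch ligand gene dll4 rose from 32.6 ± 9.40 to 119 ± 20.2 CPM (adjusted p-value of 0.0133 by edgeR). These 2 genes made up most of the list's sum. Among the less abundant genes of the list, egfl7 lay at 1.21 ± 0.403 CPM under DMSO against 5.01 ± 4.19 CPM under RA. It was highest in RA replicate 6 at 9.84 CPM, and did not pass (adjusted p-value of 0.244 by edgeR). The part of endothelial cells in the values of efnb2a and ephb4a was not tested.

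Fewer genes were higher than lower in RA among both receptors and ephrins. Of 14 tested receptors, 6 were higher and 8 lower, and their median log2 fold change was -0.29. Of 13 ephrins, 5 were higher and 8 lower, with a median of -0.15. Over all 17270 tested genes the median was 0.02, with 47.4% lower. With a filter at a mean of 10 CPM, which drops the low receptors, the receptor median was 0.13 in place of -0.29.

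By class the medians lay further apart. In class A, 5 of 16 were higher and 11 lower with a median of -0.29. Of the 16, 7 (43.75%) did not overlap between groups, 5 of them lower, against 15.5% of all tested genes. In class B, 6 of 11 tested genes were higher and 5 lower with a median of 0.05. Of the 11, 2 (18.2%) did not overlap, both lower, which is near the share of all tested genes. Among the receptors, 6 of 8 were lower in class A (median -0.46) beside 2 of 6 in class B (median 0.23). Among the ephrins 5 of 8 were lower in class A (median -0.11) and 3 of 5 in class B (median -0.50), so there class B had the lower median. The difference between the classes was not tested, and the class B median was -0.19 without RA replicate 9 and between -0.10 and 0.01 when any other single library was left out.

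By summed level per kilobase, class A receptors lay at 64.1, 61.0 and 59.0 in DMSO and at 48.4, 66.8 and 35.9 in RA, and class B ephrins at 93.5, 111 and 110 in DMSO and at 57.7, 106 and 50.8 in RA. In both, RA replicates 6 and 12 were under every DMSO library and replicate 9 was not. Class A ephrins lay at 248, 213 and 254 in DMSO and at 263, 249.6 and 250.1 in RA, and class B receptors at 116, 87.3 and 82.8 in DMSO and at 95.9, 121 and 83.7 in RA, with overlap in each. Class A receptors made up 35.6%, 41.1% and 41.6% of the receptor total in DMSO and 33.6%, 35.6% and 30.02% in RA.

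Many of these genes exist as copies named a and b. Many such copies in zebrafish date from the genome duplication at the base of the teleost fishes. The pairs here were taken by name, and the origin of each was not tested. Both epha4a and epha4b lie on chromosome 2, at 40067808 to 40136024 and at 40294313 to 40514151. The copies of every other pair lie on different chromosomes. In 10 of 11 such pairs, the same copy was the higher per kilobase in all 6 libraries, the b copy in 7 pairs and the a copy in 3. This order depends in part on the annotated exon length, which is 907 bases for efna5b and 4947 for efna5a. In CPM, efna5a averaged 14.45 against 11.6 for efna5b under DMSO, and 23.8 against 18.4 under RA. By that measure efna2a was above efna2b in every DMSO library, and epha4a above epha4b in RA replicates 9 and 12. The b copy led by far in efna3 (75.9 to 870-fold), ephb2 (28.4 to 361-fold, with few counts for ephb2a), efna1 (8.76 to 20.9-fold) and efnb3 (4.08 to 16.4-fold). The exception was efnb2, where the b copy stood at 0.671, 0.742 and 0.744 times the a copy in DMSO and at 0.987, 1.06 and 1.14 times in RA. Here the copies came level in RA, because efnb2a was lower there and efnb2b, at 20.4 ± 1.12 and 21.0 ± 2.104 CPM, was not.

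In 5 of the 10 pairs with both copies tested, the fold changes of the copies had opposite signs. These were epha4, ephb3, efna2, efnb2 and efnb3. The values of ephb3b (0.34, SE 0.54) and efnb2b (0.04, SE 0.17) were smaller than their standard errors. Each changed sign in an alternative, so the signs of those pairs are uncertain. The ratio of efna2b to efna2a was 1.26, 1.13 and 1.29 in DMSO and 2.61, 1.88 and 2.097 in RA, higher in every RA library. That of epha4b to epha4a was 3.77, 2.80 and 3.16 in DMSO and 1.81, 1.37 and 1.44 in RA, lower in every RA library, replicate 9 included. That of efnb3b to efnb3a was 16.1, 12.0 and 16.4 in DMSO and 4.08, 8.44 and 6.13 in RA, also lower in every RA library. In the pair epha2 both copies were lower in RA, and epha2b stood at 0.334, 0.373 and 0.470 times epha2a in DMSO and at 0.179, 0.143 and 0.332 times in RA. For ephb3 the ratio overlapped, since ephb3b varied so widely in DMSO. A ratio shows unequal change of the copies and not which of them changed, and no test of the ratios was made.

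**Figure D4:**
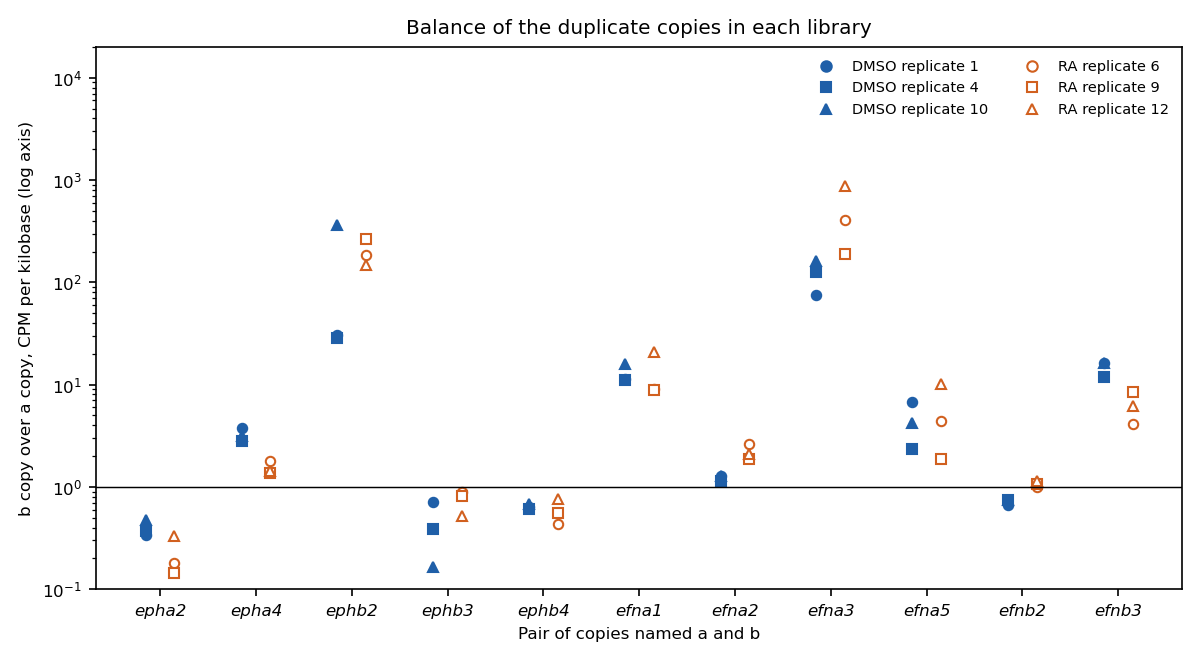
Ratio of the b copy to the a copy in each library, from CPM per kilobase on a log axis, for 11 pairs, with the line at 1 marking equal levels. The efna2 ratio is higher and the epha4 and efnb3 ratios are lower in every RA library than in every DMSO library, and efnb2 crosses the line.

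Genes that act next to Ephs and ephrins were covered by 3 lists. None of their 72 tested genes passed 0.05 with edgeR, and 13 did at an unadjusted p-value (10.2% of all genes). Of the genes that carry the forward signal, which include the GTPase regulators and kinases below the receptor, 11 of 35 were higher and 24 lower (median log2 fold change -0.05). DESeq2 passed 2 of them, beside 3.89% of all its genes. The largest values were those of grb10a, an adaptor that binds EphB1 in mammals, with 7.81 ± 0.994 CPM under DMSO against 19.8 ± 7.90 CPM under RA (1.34, SE 0.31, adjusted p-value of 0.123 by edgeR), and chn2, low at 2.12 ± 0.227 and 1.24 ± 1.08 CPM (-0.79, SE 1.00).

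Of the genes for the reverse signal of ephrins, 8 of 20 were higher and 12 lower (median -0.17), and DESeq2 passed 1 (3.89% of all its genes). The largest were rgs3b, whose mouse counterpart links ephrin-B to G proteins, with 28.0, 25.9 and 20.1 CPM under DMSO against 15.6, 12.0 and 13.7 CPM under RA (-0.84, SE 0.20, adjusted p-value of 0.139 by edgeR), and the adaptor nck2a, which in mammals binds the phosphorylated tail of ephrin-B, with 140, 106 and 105 CPM under DMSO against 67.6, 93.4 and 64.3 CPM under RA (-0.64, SE 0.19, adjusted p-value of 0.233 by edgeR). In both every RA library was under every DMSO library. Of the genes for shedding and turnover, proteases and phosphatases, 13 of 17 were higher and 4 lower (median 0.16), and DESeq2 passed 0 (3.89% of all its genes). The largest were the phosphatase gene ptprja (-1.11, SE 0.38) and the protease gene mmp9 (1.11, SE 0.44), both under 5 CPM in every library.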

How the data were processed

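Each deposited table gives, for every gene, its raw count and exon length. Per the file headers the authors counted read pairs with featureCounts 1.6.0, ignoring strand, using GRCz11 gene models from Ensembl 95. The submitters' processing notes name STAR 2.5.2a. With the options shown, fragments on several genes or places were left out. A table of names covered 29201 of 32520 genes. Of the 28 Eph and ephrin genes, 9 carried their zebrafish symbol there. The other 19 carried a symbol in capitals, and took the RefSeq symbol (assembly GRCz12tu, names alone) of that gene on the same chromosome.

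Counts were tested with edgeR 4.0.16 in R 4.3.3 (filterByExpr, TMM scaling, quasi-likelihood test with treatment alone, two-sided, Benjamini-Hochberg adjustment over 17270 genes, threshold 0.05), and the code was tested on simulated data. The SE of a log2 fold change is its size over the root of its F statistic. CPM use the TMM-scaled totals and are given by library or as mean ± SD. The floor of 3 counts was 0.128 to 0.188 CPM and covers counting error alone. Alternatives were DESeq2 1.42.0, limma-voom 3.58.1 with quality weights, 2 other scalings, 2 other filters, a robust dispersion and leaving out each library. All listed Eph and ephrin genes are reported. Of the pathway lists, genes past the threshold were to be named, or else the 2 largest log2 fold changes. Of 78 listed pathway genes 74 were matched by symbol. The Eph and ephrin genes, the lists and the tests were chosen with earlier results of these data known. No sequence is given, since none was at hand.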

Additional observations from a re-analysis of the deposited data

How the results depend on the processing

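The labels name no pairs of libraries and the groups share no replicate number, so no paired analysis was made. The count of all genes past 0.05 was 138 with edgeR, 276 with no filter, 671 with DESeq2, 394 with limma-voom and quality weights, and 9 (without DMSO replicate 4) to 325 (without RA replicate 9) with a library left out. The count of Eph and ephrin genes was 0 with edgeR, 1 with no filter, 4 with DESeq2, 4 with limma-voom, and 0 to 2 with a library left out. It stayed at 0 under both other scalings, the filter at 10 CPM and the robust dispersion. The median of the receptors was 0.13 with that filter, which leaves fewer genes, and that of class B was -0.188 to 0.014 with a library left out. Over single genes, 324 of 345 values kept their direction and side of the threshold, 11 newly passed and 10 changed sign. They were efnb2b with limma-voom (-0.044) and without RA replicate 9, ephb2b without DMSO replicate 4, RA replicate 6 or RA replicate 9, and epha3 without DMSO replicate 10 or RA replicate 6. The others were ephb3b and efna3b without DMSO replicate 10 and efna1a without RA replicate 12. With a library left out, efnb2b ranged from -0.043 to 0.105, ephb2b from -0.051 to 0.40, epha3 from -0.029 to 0.382, ephb3b from -0.076 to 1.19, efna3b from -0.175 to 0.008 and efna1a from -0.526 to 0.14. The cause was not tested. Depth limits ephb2a, efna3a and epha6, the genes with the fewest counts.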

Other observations

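The annotation holds 3 further genes of the family that the list of symbols does not name. They are left out of the counts, medians and sums by role and class above. The gene ephb6, a receptor whose mammalian counterpart has no kinase activity, had 28, 3 and 9 counts in DMSO replicates 1, 4 and 10 and 67, 41 and 130 counts in RA replicates 6, 9 and 12. Every RA library was higher, with a fitted log2 difference of 2.69 (SE 0.81, adjusted p-value of 0.240 by edgeR). This was larger in size than that of any listed receptor, epha4l included, and came from few counts. The receptor gene ek1 lay at 69.9, 63.5 and 36.3 CPM under DMSO against 38.4, 77.8 and 13.6 CPM under RA (-0.39, SE 0.54), a spread that resembles that of epha2a and efnb3b in that RA replicate 9 was by far the highest RA library. The ephrin gene efna4 had 4 to 31 counts in the libraries and was not tested.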
